A study of Mus musculus with 8 samples.

Results

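The epidermal growth factor (EGF) ligands and the ERBB receptors they bind are described here across the kidneys of wild-type and polycystic mice given flavopiridol or vehicle. The members were the 9 genes named for this family, Egf, Hbegf, Tgfa, Areg, Btc, Egfr, Erbb2, Erbb3 and Erbb4, each found by its symbol among 20245 rows in every file. Whole-kidney RNA of C57BL/6 mice was captured with oligo(dT) and sequenced in 8 libraries. The deposited values are taken as FPKM, which are scaled to transcript length and to library size. This unit was inferred from the values. There were 2 libraries in each of 4 groups. PKD_FP and PKD_DMSO were kidneys with autosomal dominant polycystic kidney disease given FP, which the series design names as flavopiridol, or the vehicle DMSO, and WT_FP and WT_DMSO were wild-type kidneys given the same. Flavopiridol inhibits cyclin-dependent kinases, among them the CDK9 kinase that releases paused RNA polymerase II. The sources used here do not give the mutated gene, the dose, the length of treatment or the mice's age. Neither do the labels say whether the replicates are separate animals, so p-values measure the spread between these samples only.

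The ligands are made as membrane-bound precursors that metalloproteinases cut free, and all 5 of them bind EGFR, while HB-EGF and betacellulin also bind ERBB4. Binding pairs the receptors and switches on their kinases, and ERK signalling follows. ERBB2 has no known ligand of its own and acts as the partner of the other receptors, and ERBB3, which binds neuregulins, has a weak kinase and signals through its partner. In the kidney the thick ascending limb and the distal convoluted tubule make large amounts of EGF precursor, and signalling by this family has long been studied in the growth of cyst epithelium.

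Values summed to 485924 to 572661 FPKM per library, with 17856 to 18390 genes above 0. Since FPKM is already scaled to library size, these sums do not measure depth. Read numbers were not given, but the lowest values moved in steps. From genes with a single transcript of 300 to 700 bp, 1 read was estimated to be worth 0.0575 to 0.0750 FPKM in a transcript of 1 kb, which puts the depths of the libraries within 1.30-fold of each other. The tissue markers were present in every library: Umod, the uromodulin gene of the thick ascending limb, stood at 717 to 980 FPKM in the 4 PKD libraries and 922 to 1291 FPKM in the 4 WT libraries, and Slc34a1, the phosphate transporter gene of the proximal tubule, at 191 to 397 and 769 to 1879 FPKM.

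Start regions of 3 members are shown because these members stand for the contrasts described below: Egf is the ligand that fell, Areg a ligand near 0 in wild-type kidneys, and Egfr the receptor for both. Each is the window from 250 bases before to 50 bases after the annotated start in RefSeq (GRCm38.p6, the assembly of mm10). Windows of 7 of the 9 members were searched here (all but Hbegf and Erbb3). The windows shown are Egf at chr3:129755273-129755572 on the minus strand, Areg at chr5:91139349-91139648 on the plus strand and Egfr at chr11:16751953-16752252 on the plus strand. Capitals mark matches, on either strand, to 4 motifs, and no match overlapped another. The motif of the TATA box core was TATAAA. That of the cyclic AMP response element, bound by CREB, was TGACGTCA. AP-1 was searched as TGANTCA. The GC box was searched as GGGCGG.
Egf: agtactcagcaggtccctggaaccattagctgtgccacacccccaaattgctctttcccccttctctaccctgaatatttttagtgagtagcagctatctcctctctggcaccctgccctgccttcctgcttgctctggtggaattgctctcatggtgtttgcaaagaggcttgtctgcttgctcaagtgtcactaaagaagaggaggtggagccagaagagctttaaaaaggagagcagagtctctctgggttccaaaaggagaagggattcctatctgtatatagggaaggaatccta
Areg: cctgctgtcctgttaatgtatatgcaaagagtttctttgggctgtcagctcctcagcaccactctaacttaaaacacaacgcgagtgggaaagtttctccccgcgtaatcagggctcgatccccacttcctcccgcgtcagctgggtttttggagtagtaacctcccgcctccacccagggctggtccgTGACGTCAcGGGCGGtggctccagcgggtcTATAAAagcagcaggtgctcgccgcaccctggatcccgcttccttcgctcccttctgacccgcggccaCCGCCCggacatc
Egfr: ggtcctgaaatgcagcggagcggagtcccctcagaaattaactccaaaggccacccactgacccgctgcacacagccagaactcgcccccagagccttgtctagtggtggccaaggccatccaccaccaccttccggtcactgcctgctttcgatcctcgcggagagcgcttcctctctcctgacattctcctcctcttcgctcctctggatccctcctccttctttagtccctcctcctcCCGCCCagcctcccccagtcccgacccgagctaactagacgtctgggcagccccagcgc
The Egf window, which is 1 of 2 listed for that gene, held none of these motifs. The Areg window held the TATA box core from base −31 to −26, the cyclic AMP response element from −61 to −54, and the GC box from −52 to −47 and, on the other strand, from 38 to 43, counted from the start. The Egfr window held a GC box on the other strand from −9 to −4. Over all 32851 windows in the table, the TATA box core was found in 13.6%, the cyclic AMP response element in 1.79%, the AP-1 motif in 7.81% and the GC box in 35.7%. A match describes the letters only and shows no binding.

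Among the ligands, polycystic kidneys had little Egf transcript and more Hbegf, in both treatments. Egf (chromosome 3, 129677574 to 129755322) stood at 12.4 and 24.6 FPKM in PKD_FP, 15.9 and 7.79 in PKD_DMSO, 384 and 255 in WT_FP, and 309.7 and 396 in WT_DMSO. Every PKD library was far below every WT library, and within a genotype the treatments overlapped. The level in PKD_DMSO averaged 11.9 ± 5.76 FPKM, against 353 ± 60.7 FPKM in WT_DMSO (SD, n = 2 each), which is 29.7 times as much in WT_DMSO. On the log2(FPKM + 1) scale, on which all fold changes here are given, PKD_DMSO differed by −4.85 (95% interval −5.86 to −3.84). It passed the limma test, adjusted over 14391 genes by the method of Benjamini and Hochberg (adjusted p = 0.00196). Under FP the same comparison gave −4.09 (PKD_FP vs WT_FP, limma, adjusted p = 0.00581).

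Hbegf, which encodes heparin-binding EGF-like growth factor, a membrane-anchored ligand made by epithelia and macrophages (chromosome 18, 36504927 to 36515805), went the other way. It stood at 35.1 and 48.3 FPKM in PKD_FP, 43.2 and 29.3 in PKD_DMSO, 8.38 and 9.75 in WT_FP, and 7.92 and 8.53 in WT_DMSO. The 4 PKD libraries were all above the 4 WT libraries, with the WT libraries close together and the PKD libraries more spread. Hbegf rose by 1.99 on the log2 scale in PKD_DMSO against WT_DMSO (95% interval 1.44 to 2.54; limma, adjusted p = 0.0041), and by 2.07 in PKD_FP against WT_FP (limma, adjusted p = 0.00664). These calls of Egf and Hbegf held under every alternative tried.

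Tgfa, encoding transforming growth factor alpha, a ligand of EGFR (chromosome 6, 86195038 to 86275744), was low in all groups. It stood at 1.95 and 3.0 FPKM in PKD_FP, 4.34 and 3.2 in PKD_DMSO, 1.33 and 2.67 in WT_FP, and 1.35 and 1.77 in WT_DMSO. Both PKD_DMSO libraries were above all others, but the difference of 0.89 between PKD_DMSO and WT_DMSO (95% interval 0.20 to 1.58) missed the threshold (limma, adjusted p = 0.068). Btc, encoding betacellulin (chromosome 5, 91357261 to 91402994), stood at 7.0 and 6.21 FPKM in PKD_FP, 5.02 and 5.04 in PKD_DMSO, 6.16 and 9.87 in WT_FP, and 3.86 and 4.45 in WT_DMSO. In both genotypes the FP libraries were above the DMSO libraries. For Btc, PKD_DMSO differed from WT_DMSO by 0.23 (interval −0.30 to 0.76), and a difference of 1 on this scale lies outside that interval (limma, adjusted p = 0.488).

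Areg, encoding amphiregulin, a ligand of EGFR (chromosome 5, 91139599 to 91148432), was near the limit of what these libraries can show. It stood at 0.29 and 1.33 FPKM in PKD_FP, 0.66 and 0.41 in PKD_DMSO, 0.00 and 0.18 in WT_FP, and 0.06 and 0.00 in WT_DMSO. With the step estimated above and a transcript of 1215 bp, these values come to about 5.9 to 24.1 reads in the PKD libraries and 0 to 2.9 reads in the WT libraries. All PKD libraries were above all WT libraries. Areg did not reach 1 FPKM in 2 libraries and so was not among the 8 members tested. Without that filter its difference between PKD_DMSO and WT_DMSO was 0.57, with a size set partly by the pseudocount of 1 FPKM (limma, adjusted p = 0.211).

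**Figure D1:**
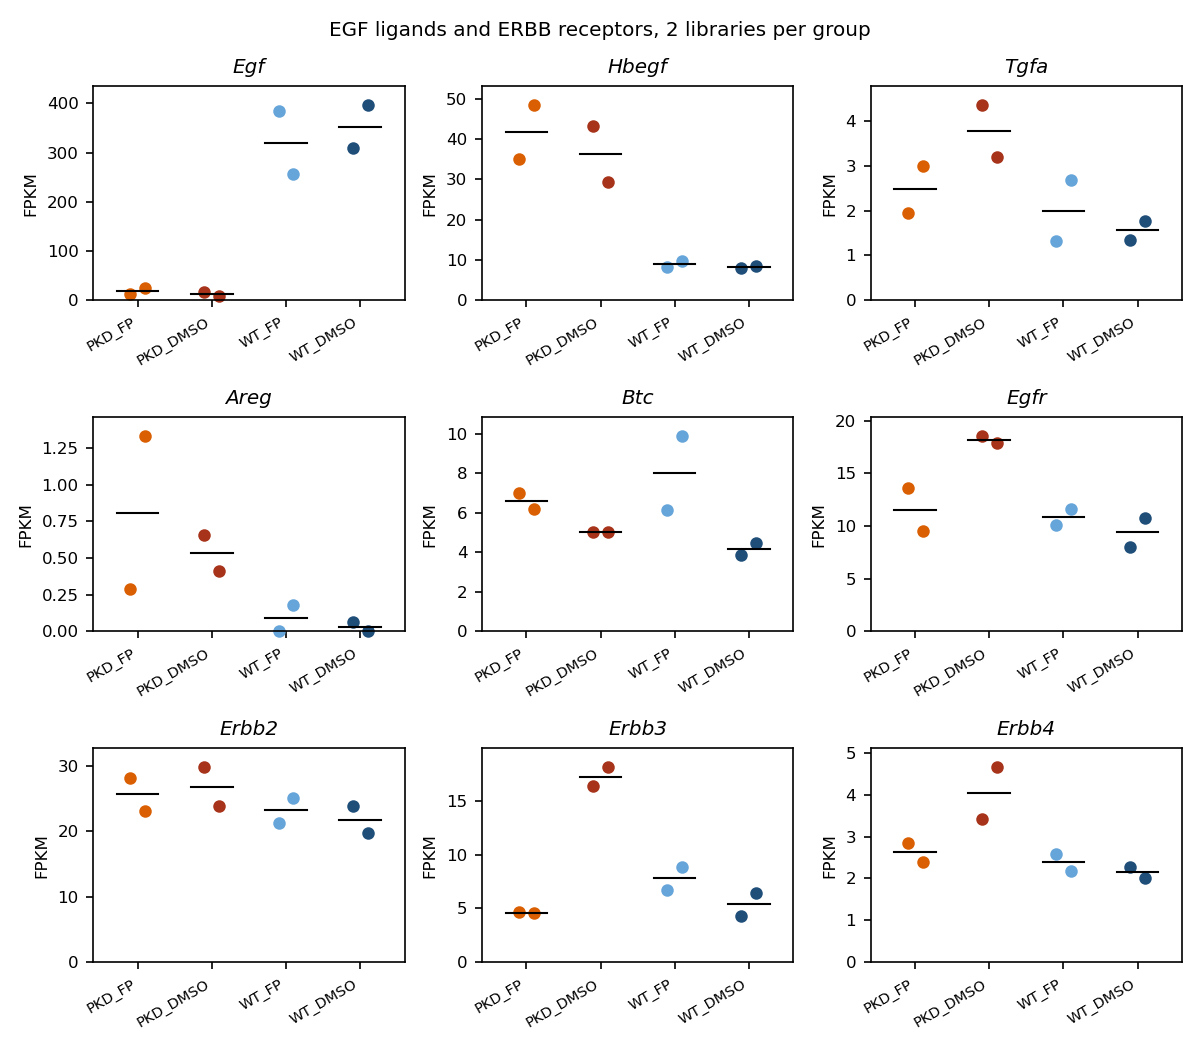
FPKM of each of the 9 members (vertical axes, linear and from 0, each with its own range) in the 4 groups, with a point for each library and a line at the mean of 2. Egf is low and Hbegf high in all PKD libraries, and Erbb3 is high in the 2 PKD_DMSO libraries only.

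Because FPKM is per length, the ligands can be set beside each other within a library. Egf made up 21.8% and 29.5% of the summed FPKM of the 5 ligands in PKD_FP and 23.0% and 17.0% in PKD_DMSO, against 96.0% and 91.9% in WT_FP and 95.9% and 96.4% in WT_DMSO. The mean share was 22.8 ± 5.13% in the 4 PKD libraries and 95.1 ± 2.11% in the 4 WT libraries (SD, n = 4 each), a difference of −72.2 percentage points (two-sided exact permutation test over 70 arrangements, p = 0.0286, the smallest these can give). The arrangements pooled the FP and DMSO libraries of a genotype as if they were replicates, so treatment was not kept apart in this test. In PKD kidneys Hbegf took the place at the top, with 57.9% to 64.0% of the sum, against 2.08% to 3.51% in WT kidneys. The sum itself was 45.7 to 83.5 FPKM in PKD libraries and 278 to 410.4 FPKM in WT libraries, and every PKD sum was below every WT sum.

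Within WT kidneys the order of ligand levels was Egf, then Hbegf, Btc, Tgfa and Areg, except that in WT_FP replicate 2 Btc (9.87 FPKM) and Hbegf (9.75 FPKM) were nearly level. Within PKD kidneys the order was Hbegf, Egf, Btc, Tgfa and Areg in every library. In PKD kidneys neighbours in this order came close, since the lowest Egf value was 7.79 FPKM and the highest Btc value 7.0 FPKM, and the lowest Btc value was 5.02 FPKM and the highest Tgfa value 4.34 FPKM.

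**Figure D2:**
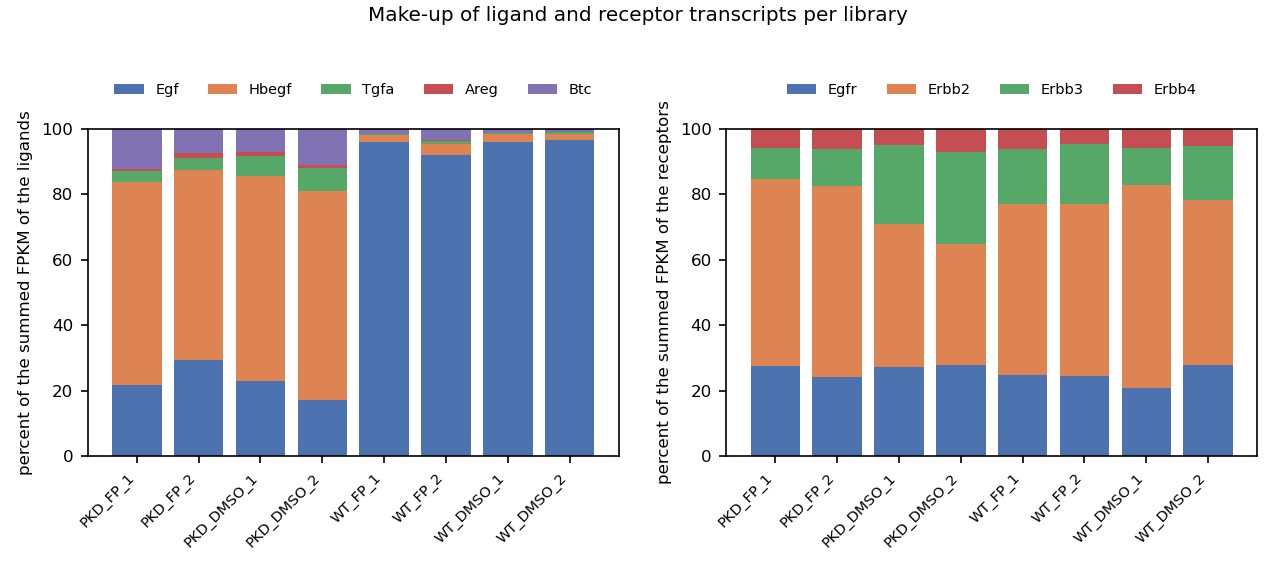
Percent of the summed FPKM of the 5 ligands (left) and of the 4 receptors (right) given by each gene, with a bar for each of the 8 libraries. Egf fills 91.9% or more of the ligand bar in every WT library and 29.5% or less in every PKD library, while Erbb2 is the largest part of the receptor bar in all libraries.

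The 4 receptor genes were expressed in every library. In both PKD_DMSO libraries each of them was above both WT_DMSO libraries, as were 41.2% of all genes tested. For Erbb2 the nearest libraries were level (23.87 against 23.84 FPKM), and only Egfr and Erbb3 passed by limma. Egfr, the receptor of all 5 ligands (chromosome 11, 16752203 to 16913907), stood at 13.6 and 9.53 FPKM in PKD_FP, 18.5 and 17.9 in PKD_DMSO, 10.1 and 11.6 in WT_FP, and 8.03 and 10.8 in WT_DMSO. The PKD_DMSO libraries were the highest, and the PKD_FP libraries overlapped both WT groups. Egfr rose by 0.89 in PKD_DMSO against WT_DMSO (95% interval 0.39 to 1.40; limma, adjusted p = 0.0281). That call ended after median-of-ratios scaling (0.75; limma, adjusted p = 0.0851), after quantile normalization (0.73; 0.0771), with replicate number as a block (0.0561), and without WT_DMSO replicate 1, PKD_DMSO replicate 1 or PKD_DMSO replicate 2 (0.70, 0.87 and 0.92). In PKD_FP against WT_FP it stood at 0.07 (interval −0.44 to 0.57; limma, adjusted p = 0.864), and its sign turned after median-of-ratios scaling (−0.02) and quantile normalization (−0.0051) and without WT_FP replicate 1 (−0.03) or PKD_FP replicate 1 (−0.17).

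Erbb3 (chromosome 10, 128567523 to 128589635) had the largest difference among the receptors. It stood at 4.70 and 4.54 FPKM in PKD_FP, 16.4 and 18.1 in PKD_DMSO, 6.75 and 8.82 in WT_FP, and 4.34 and 6.45 in WT_DMSO. The PKD_DMSO libraries stood apart from the other 6, and no other library reached 9 FPKM. Erbb3 rose by 1.53 in PKD_DMSO against WT_DMSO (95% interval 1.03 to 2.03; limma, adjusted p = 0.00593), and the call ended without PKD_DMSO replicate 2 (1.46; limma, adjusted p = 0.0559). In PKD_FP against WT_FP it did not pass, at −0.63 (limma, adjusted p = 0.0929).

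Erbb2, encoding the partner receptor HER2 (chromosome 11, 98412484 to 98437716), had the highest level of the receptors. It stood at 28.2 and 23.2 FPKM in PKD_FP, 29.8 and 23.9 in PKD_DMSO, 21.4 and 25.1 in WT_FP, and 23.8 and 19.7 in WT_DMSO. The lower PKD_DMSO library (23.87 FPKM) and the higher WT_DMSO library (23.84 FPKM) were level. The difference of 0.29 had an interval of −0.16 to 0.73, which does not reach 1 (limma, adjusted p = 0.305). Erbb4, a receptor of neuregulins, HB-EGF and betacellulin (chromosome 1, 68031884 to 69108576), was the lowest. It stood at 2.85 and 2.40 FPKM in PKD_FP, 3.41 and 4.65 in PKD_DMSO, 2.58 and 2.19 in WT_FP, and 2.28 and 2.01 in WT_DMSO. Its difference of 0.67 between PKD_DMSO and WT_DMSO (interval 0.19 to 1.14) missed the threshold (limma, adjusted p = 0.0542), and it passed without the trend and robust settings (limma, adjusted p = 0.0421).

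The order of receptor levels was Erbb2, Egfr, Erbb3 and Erbb4 in 7 libraries, and in PKD_DMSO replicate 2 Erbb3 (18.1 FPKM) and Egfr (17.9 FPKM) were level. The Egfr share of the summed receptor FPKM averaged 26.6 ± 1.73% in the 4 PKD libraries and 24.4 ± 2.80% in the 4 WT libraries (SD, n = 4 each), a difference within the spread (two-sided exact permutation test, p = 0.343). Erbb3 gave 9.53% and 11.5% of the sum in PKD_FP and 24.0% and 28.1% in PKD_DMSO, against 16.6% and 18.5% in WT_FP and 11.3% and 16.5% in WT_DMSO. The receptor sum was 49.3 and 39.6 FPKM in PKD_FP and 68.1 and 64.5 FPKM in PKD_DMSO, against 38.5 to 47.7 FPKM in WT libraries.

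In all, 3 of the 8 members tested were higher and 1 lower in PKD_DMSO than in WT_DMSO, where 14.8% of all 14391 genes were called higher and 7.52% lower, or 22.3% in all. Their median log2 fold change was 0.78, against 0.12 for all genes tested. Over all 9 members the PKD_DMSO and WT_DMSO libraries did not overlap, with 8 higher and 1 lower, where 41.2% of the tested genes had both libraries higher and 24.5% both lower. Under FP, 1 of 8 was higher (Hbegf) and 1 lower (Egf) in PKD_FP than in WT_FP, where 8.71% and 5.23% of all genes were called, or 13.9% in all. Without overlap, 2 of the 9 were higher (Hbegf and Areg) and 2 lower (Egf and Erbb3) there, where 34.6% and 25.2% of the tested genes were so placed. Averaged over both treatments, 2 were higher (Hbegf, by 2.03, and Egfr, by 0.48) and 1 lower (Egf, at −4.47) in PKD than in WT kidneys, where 21.7% and 12.6% of all genes were called, or 34.3% in all. The averaged call of Egfr had a limma adjusted p of 0.0464 and ended in 11 of 16 alternatives, while Erbb3 (0.45), Tgfa (0.56) and Erbb4 (0.38) did not pass.

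**Figure D3:**
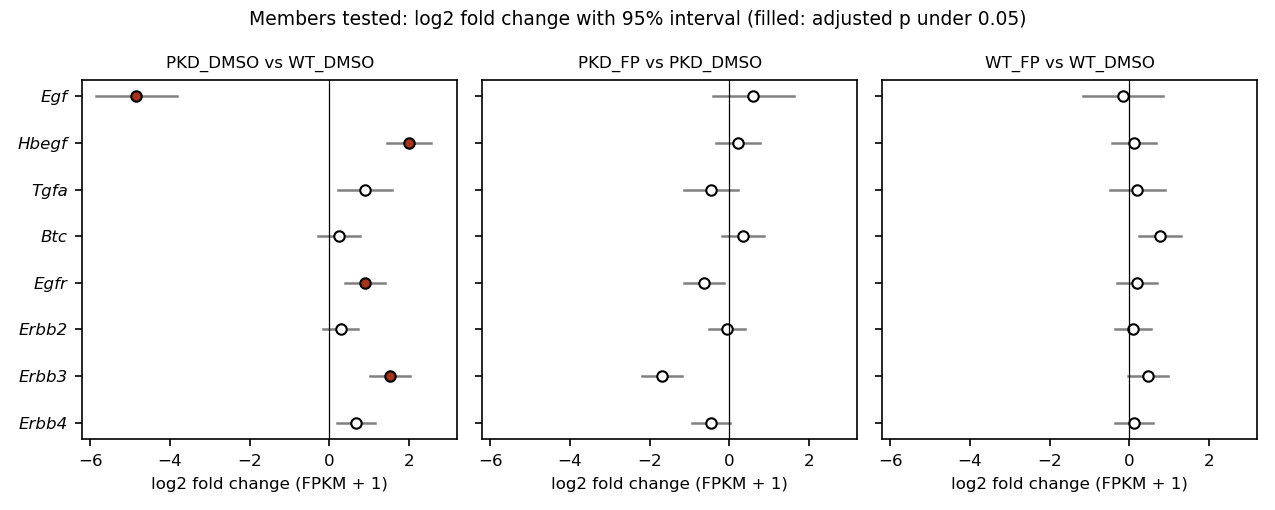
Log2 fold change of FPKM + 1 (horizontal axis) with its 95% interval for the 8 members tested, in PKD_DMSO vs WT_DMSO, PKD_FP vs PKD_DMSO and WT_FP vs WT_DMSO; filled points passed an adjusted p of 0.05. Only in the first comparison are points filled (Egf, Hbegf, Egfr and Erbb3), and Erbb3 lies at 1.53 there and at −1.70 in the second. The first and second comparisons share the PKD_DMSO libraries and so are not independent.

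Flavopiridol was set against vehicle in each genotype to ask what the drug did to these transcripts. PKD_FP was compared with the same PKD_DMSO libraries that were set against WT_DMSO above, so these 2 comparisons are not independent. In PKD_FP against PKD_DMSO, 0 of the 8 members tested passed by limma, where 0.0139% of all genes (2 of 14391) did, 0.00695% higher and 0.00695% lower, and 2 members had an unadjusted p under 0.05, as had 2804 of all genes (19.5%). The first was Erbb3, whose PKD_FP libraries (4.70 and 4.54 FPKM) were both below both PKD_DMSO libraries (16.4 and 18.1 FPKM). Its mean in PKD_FP was 0.268 times that in PKD_DMSO, a log2 difference of −1.70 with a 95% interval of −2.20 to −1.20. Its unadjusted p of 9.55e-05 ranked 10 among 14391 genes, but the limma adjusted p was 0.124 and ranged from 0.0532 to 0.525 over the alternatives. The second was Egfr, at 13.6 and 9.53 FPKM in PKD_FP against 18.5 and 17.9 FPKM in PKD_DMSO, which is −0.63 on the log2 scale (interval −1.14 to −0.13; limma, adjusted p = 0.187) and −0.40 without PKD_FP replicate 2.

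The libraries of Tgfa (−0.46) and Erbb4 (−0.46) were also lower in PKD_FP than in PKD_DMSO without overlap, and those of Btc (0.33) higher. Leaving out 1 of these 4 libraries gave −0.68 to −0.24 for Tgfa and −0.64 to −0.29 for Erbb4. Without overlap, that makes 4 members lower and 1 higher, where 25.2% and 31.4% of the tested genes were so placed. Egf (0.60, interval −0.41 to 1.61), Hbegf (0.20, interval −0.35 to 0.76) and Erbb2 (−0.06, interval −0.50 to 0.38) overlapped, and the intervals of Hbegf and Erbb2 do not reach 1 on the log2 scale. The Egf value was 0.13 without PKD_DMSO replicate 2 or PKD_FP replicate 2, and 1.07 without the other library of either group. Marker sums moved between these groups too. The 17 thick limb and distal convoluted tubule genes summed to 5423 and 3892 FPKM in PKD_FP against 3466 and 2985 FPKM in PKD_DMSO. Of this, Fxyd2 alone gave 3505 and 2160 FPKM against 2033 and 1665 FPKM. The median log2 difference of the 17 genes was 0.58. By limma at an unadjusted p under 0.05, 8 of the 17 were higher and 0 lower, where 10.3% and 9.14% of all genes were. The 9 injured tubule genes summed to 12006 and 13162 FPKM against 13636 and 13650 FPKM. Most of that was Spp1, at 10073 and 11039 FPKM against 10168 and 10813 FPKM. The median log2 difference of those 9 genes was −0.55. At an unadjusted p under 0.05, 2 of them were lower and 0 higher, where 9.14% and 10.3% of all genes were. The part of these markers in the differences of Erbb3 and Egfr was not tested.

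In wild-type kidneys 0 of the 8 members passed by limma in WT_FP against WT_DMSO, where 0 of 14391 genes did (183, or 1.27%, at an unadjusted p under 0.05). Btc had an unadjusted p of 0.0103, with 6.16 and 9.87 FPKM in WT_FP against 3.86 and 4.45 FPKM in WT_DMSO and a difference of 0.78 (limma, adjusted p = 1), or 0.48 without WT_FP replicate 2. Erbb3 was higher in both WT_FP libraries (6.75 and 8.82 FPKM) than in both WT_DMSO libraries (4.34 and 6.45 FPKM), a difference of 0.47 whose interval of −0.03 to 0.97 included 0. It was 0.23 without WT_DMSO replicate 1, 0.30 without WT_FP replicate 2 and 0.71 without WT_DMSO replicate 2. Egf (−0.16) and Hbegf (0.12) overlapped. Counted without overlap, 2 of the 9 members were higher in WT_FP and 0 lower, where 16.6% and 5.32% of the tested genes were so placed. The difference between the drug responses of the genotypes was tested as an interaction, and 0 of 8 members and 0 of 14391 genes passed by limma. At an unadjusted p under 0.05 were Erbb3 (−2.16; limma, adjusted p = 0.327) and Egfr (−0.83; limma, adjusted p = 0.42), 2 of the 8 members, against 1616 of all genes (11.2%).

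The other ligands of the family were mostly near 0, and 1 of them rose. Nrg1, which encodes neuregulin 1, a ligand of ERBB3 and ERBB4, stood at 16.5 and 6.74 FPKM in PKD_FP, 13.0 and 7.66 in PKD_DMSO, 2.63 and 1.78 in WT_FP, and 1.44 and 1.14 in WT_DMSO. All PKD libraries were above all WT libraries. Nrg1 rose by 2.27 in PKD_DMSO against WT_DMSO (limma, adjusted p = 0.0133), and the call was lost when WT_DMSO replicate 2 (2.17), PKD_DMSO replicate 1 (1.92) or PKD_DMSO replicate 2 (2.61) was left out. Nrg4, a ligand of ERBB4, did not pass, at 0.15. Ereg (0.51 FPKM at most), Epgn (0.23), Nrg2 (0.51) and Nrg3 (0.09) were too low to be tested.

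Genes that release the ligands and that carry or restrain the receptors' signal were counted as lists. These lists and the marker lists were chosen with earlier results of these data known, so their counts are no independent test. Of 10 sheddase genes and regulators, 5 rose and 0 fell in PKD_DMSO against WT_DMSO by limma, with a median of 0.81. Of all genes tested, 14.8% rose and 7.52% fell in that contrast, with a median of 0.12. Rhbdf2, encoding iRhom2, which guides the sheddase ADAM17, rose by 1.28, Adam10, a sheddase gene for EGF and betacellulin, by 1.03, and Adam19 by 1.51, while Adam17 itself stood at 0.41 (limma, adjusted p = 0.117). The call of Adam10 ended without any of the 4 libraries compared (1.01 to 1.04), and that of Adam19 without WT_DMSO replicate 2 (1.29) or PKD_DMSO replicate 2 (1.09) and in the fit of the groups compared. Of 24 adaptor and kinase genes, 9 rose and 0 fell, with a median of 0.43. Among them were the tyrosine kinase gene Src (1.2), the survival kinase gene Akt1 (1.15) and the small GTPase gene Nras (1.11), and the calls of Akt1 and Nras ended without PKD_DMSO replicate 2 (1.08 and 1.12).

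Of 16 genes of negative feedback on the pathway, 7 rose and 0 fell, with a median of 0.58, beside 14.8% and 7.52% of all genes. The ERK phosphatase genes Dusp4 and Dusp5 rose by 2.05 and 1.79, and Spred1, encoding an inhibitor of RAS signalling, by 0.87. The calls of Dusp4 and Spred1 ended without PKD_DMSO replicate 2 (1.95 and 0.75). Errfi1, encoding MIG6, which blocks the EGFR kinase, did not pass, at 0.37 (limma, adjusted p = 0.468). Of 12 tested transcripts that ERK signalling is known to induce, 8 rose and 0 fell, with a median of 1.59, among them the transcription factor genes Myc (2.53), Fos (2.39) and Junb (2.39). Many other signals induce these genes as well.

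In PKD_FP against PKD_DMSO 0 genes of these 4 lists and of the other ligands passed by limma. At an unadjusted p under 0.05, 2 of 10 sheddase genes, 5 of 24 adaptor and kinase genes, 5 of 16 feedback genes and 1 of 12 ERK-induced genes were lower and 0 higher. Of all genes tested, 9.14% were lower and 10.3% higher by the same criterion. Dusp4 and Fos were named for their rise in PKD_DMSO against WT_DMSO, which rests on the same PKD_DMSO libraries. Dusp4 was at 3.05 and 1.42 FPKM in PKD_FP, against 7.01 and 8.26 FPKM in PKD_DMSO. Fos, at 9.01 and 12.6 FPKM in PKD_FP against 9.3 and 7.36 FPKM in PKD_DMSO, overlapped.

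**Figure D4:**
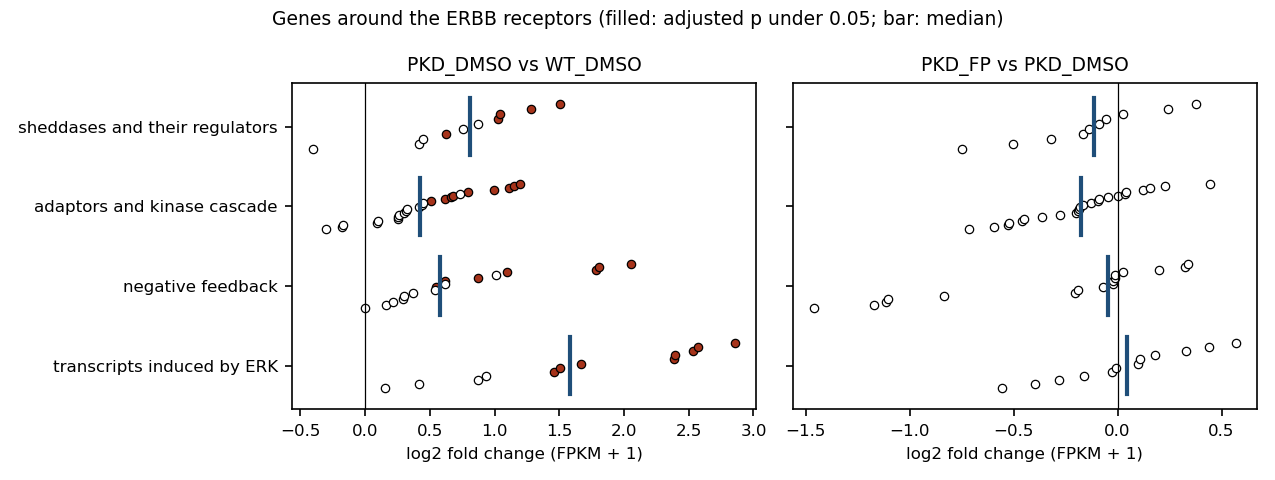
Log2 fold change of FPKM + 1 (horizontal axes) of each tested gene in 4 lists, for PKD_DMSO vs WT_DMSO (left) and PKD_FP vs PKD_DMSO (right), with filled points past an adjusted p of 0.05 and a bar at the list's median. Filled points appear on the left panel only, all above 0, and the largest median there is 1.59 for transcripts induced by ERK.

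Egf was set beside other genes of the nephron segments that make it, since in whole-kidney RNA fewer cells of a type and less RNA per cell cannot be told apart. Of 17 thick ascending limb and distal convoluted tubule genes, 8 fell and 0 rose in PKD_DMSO against WT_DMSO by limma, with a median of −1.09. Of all genes tested, 7.52% fell and 14.8% rose. The parvalbumin gene Pvalb, a marker of the early distal convoluted tubule, changed by −5.14. It was at 0.00 to 1.16 FPKM in PKD libraries, against 31.4 to 44.0 FPKM in WT libraries, so the size of its change was set partly by the pseudocount of 1 FPKM. Ppp1r1a changed by −2.82 and Fxyd2, a regulator of the sodium pump, by −1.76, and the call of Fxyd2 ended after quantile normalization (−1.04) and without PKD_DMSO replicate 2 (−1.62). Beside the interval of Egf (−5.86 to −3.84), that of Slc12a1, the salt transporter gene of the thick ascending limb, which fell, was −2.18 to −0.93. Slc12a3, its counterpart in the distal convoluted tubule (interval −2.13 to −0.20; limma, adjusted p = 0.0824), and Umod (−0.50, interval −0.94 to −0.06; limma, adjusted p = 0.0949) did not pass, nor did Trpm6, the magnesium channel gene that EGF is known to regulate (0.48; limma, adjusted p = 0.174). The summed level of the 17 genes was 2985 to 5423 FPKM in PKD libraries and 7836 to 9200 FPKM in WT libraries. Most of that sum was Fxyd2, which gave 1665 to 3505 FPKM in PKD libraries and 5005 to 6629 FPKM in WT libraries. The part of these genes in the fall of Egf was not tested.

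**Figure D5:**
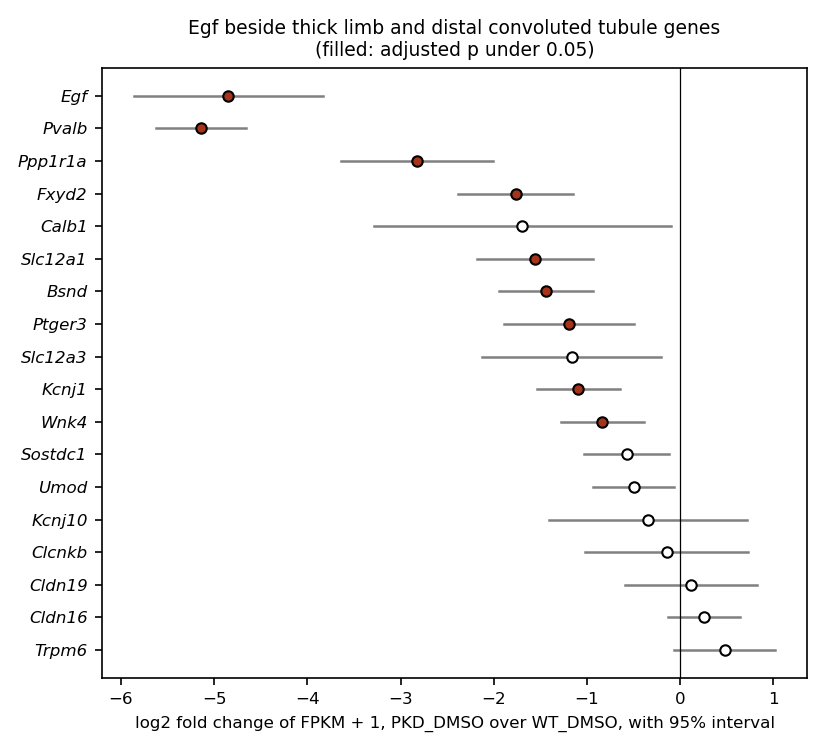
Log2 fold change of FPKM + 1 in PKD_DMSO over WT_DMSO (horizontal axis) with 95% intervals for Egf and 17 genes of the thick ascending limb and distal convoluted tubule, ordered by size, with filled points past an adjusted p of 0.05. Egf (−4.85) and Pvalb (−5.14) lie apart from the rest, the next being Ppp1r1a at −2.82. The size for Pvalb, near 0 FPKM in PKD_DMSO, was set partly by the pseudocount of 1 FPKM.

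Markers of other cells differed between the same groups, where 14.8% of all genes rose and 7.52% fell by limma. Of 12 macrophage and myeloid genes 11 rose (Lyz2 by 4.60, Fcgr3 by 3.77, C1qa by 2.84) and 0 fell, and their sum was 708 to 1381 FPKM in PKD libraries and 85.9 to 146 FPKM in WT libraries. Of 9 injured tubule genes 8 rose and 0 fell (Lcn2 by 6.72, Mmp7 by 6.01, Spp1 by 3.0), and of 8 fibroblast genes 4 rose and 0 fell (Acta2 by 2.53, Col3a1 by 2.26, Col1a1 by 2.20). The calls of these 3 were lost when WT_DMSO replicate 2 (2.01, 1.56 and 1.46) or PKD_DMSO replicate 2 (1.91, 1.69 and 1.89) was left out, those of Col3a1 and Col1a1 also without PKD_DMSO replicate 1 (2.83 and 2.51), and that of Col3a1 without either WT_FP library and in 8 alternatives in all. Of 15 proximal tubule genes 10 fell and 0 rose (Miox by −4.35, Kap by −3.86, Slc34a3 by −3.58). Of 12 collecting duct genes 3 fell (among them Slc4a1 by −3.29 and Atp6v1g3 by −1.19) and 1 rose (Krt18 by 2.48), and of 6 endothelial genes 0 passed by limma, with 1 lower at an unadjusted p under 0.05, as were 13.1% of all genes. The calls of Krt18 (2.27 to 2.6) and Atp6v1g3 (−1.07 and −1.02) ended without some of the libraries compared, WT_DMSO replicate 2 or either PKD_DMSO library for Krt18 and WT_DMSO replicate 1 or PKD_DMSO replicate 2 for Atp6v1g3. Of all these markers, Pvalb was at 0 in PKD_DMSO replicate 1 and Mmp7 in WT_DMSO replicate 1, and no other was at 0 in any library. The part of these cells in the differences of the members was not tested.

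Finally, the genes whose profiles over the 8 libraries lay nearest to the members that passed were found, by the root mean square difference of log2(FPKM + 1) centred on each gene's mean. Nearest to Egf, whose own values lay 2.28 about their mean by the same measure, were Pvalb (0.39), the amino acid dehydrogenase gene Aspdh (0.63) and the phosphate transporter gene Slc34a3 (0.68). With Pvalb at 0.00 to 1.16 FPKM in PKD libraries, its closeness to Egf was set partly by the pseudocount of 1 FPKM. Nearest to Hbegf (1.04 about its mean) were Sox9, a transcription factor gene of tubule repair (0.11), Mex3a (0.15) and Foxj1, a transcription factor gene of motile cilia (0.18). In WT libraries Sox9 was at 0.62 to 1.1 FPKM, Mex3a at 0.81 to 1.42 and Foxj1 at 0.16 to 0.65. Hbegf was at 7.92 to 9.75 FPKM there, so their closeness to it was also set partly by the pseudocount. Nearest to Erbb3 (0.68 about its mean) were Ern1, encoding the endoplasmic reticulum stress sensor IRE1 (0.18), Gatad2b (0.20) and the heparan sulfate enzyme gene Ndst1 (0.21). Nearest to Egfr (0.37 about its mean) were Wwc2 (0.09), Irgq (0.10) and the DNA damage-binding gene Ddb1 (0.10). Ern1 was at 0.65 and 0.43 FPKM in PKD_FP, 2.87 and 4.47 in PKD_DMSO, 1.44 and 1.5 in WT_FP, and 0.82 and 1.05 in WT_DMSO. With values this low, the closeness of Ern1 to Erbb3 was set partly by the pseudocount too.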

How the data were processed

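RNA of 8 mouse kidney libraries was analysed, with groups and replicate numbers from the labels. Values were deposited by the authors with 2 decimals and are taken as FPKM. The file headers name no unit, and FPKM was inferred from the values: they were not whole, and value times transcript length summed to near the same total in each library. The submitters' processing notes name Bowtie2, DESeq2 and mm10 and give neither versions nor roles. The sources used here give no counting tool, annotation or read depth.

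Tests used log2(FPKM + 1). A gene entered if it reached 1 FPKM in 2 or more libraries (14391 genes, 8 of them members), and 4 rows of 2 repeated symbols and 1 row without a name were left out. One linear model with a mean per group covered the 8 libraries (limma 3.58.1, R 4.3.3, trend and robust empirical Bayes), with two-sided Benjamini-Hochberg adjustment over all genes and a threshold of 0.05. The model was also run on simulated data, in which far fewer genes changed than were called between PKD_DMSO and WT_DMSO. That run therefore does not show its error rate in these data. Shares were compared by exact permutation over the 8 libraries, with FP and DMSO libraries pooled within a genotype. Named genes were the members, the other ligands, up to 3 genes per list with the smallest adjusted p in PKD_DMSO vs WT_DMSO, and the 3 nearest profiles of each member that passed; other genes given (among them Umod, Slc34a1, Slc12a1, Slc12a3, Trpm6, Adam17 and Errfi1) were picked with their values known. Members and lists were chosen with earlier results of these data known. Alternatives were filters, pseudocount, scaling, blocks, fewer groups, moderation settings and leaving out each library. Transcript lengths were from GENCODE M21 and coordinates and start regions from RefSeq (GRCm38.p6).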

Additional observations from a re-analysis of the deposited data

Results flagged for a closer look

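The FP libraries of Erbb3 lay below the DMSO libraries in PKD kidneys and above them in WT kidneys. It was lower in both PKD_FP libraries (4.70 and 4.54 FPKM) than in both PKD_DMSO libraries (16.4 and 18.1 FPKM), and higher in both WT_FP libraries (6.75 and 8.82 FPKM) than in both WT_DMSO libraries (4.34 and 6.45 FPKM). Of all genes tested, 25.2% were so placed in PKD and 16.6% in WT kidneys, and the share so placed in both at once was not counted. Neither difference passed: it was −1.70 in PKD kidneys (interval −2.20 to −1.20), and 0.47 in WT kidneys (interval −0.03 to 0.97, and 0.23 to 0.71 with 1 library left out). By the same values it was lower in PKD_FP than in WT_FP and higher in PKD_DMSO than in WT_DMSO. The interaction was −2.16 ± 0.30 (SE), with an unadjusted p of 0.000182 that ranked 8 among 14391 genes, and it did not pass after adjustment (limma with Benjamini-Hochberg, adjusted p = 0.327, and 0.169 to 0.877 over the alternatives). By limma 0 of 14391 genes passed this contrast, and 1616 (11.2%) had an unadjusted p under 0.05.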

How the results depend on the processing

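The number of members called between PKD_DMSO and WT_DMSO was 4. Leaving out each library in turn gave 2 to 4, the lowest without PKD_DMSO replicate 2, when Egfr and Erbb3 no longer passed. The replicate numbers are not stated to mark shared animals, and deviations of same-numbered libraries correlated at −0.515 to 0.485 across genes. Replicate number as a block gave 3 members, and exchanging the numbers of WT_DMSO, an alternative added after the data had been seen, gave 5. For the Egf share (−72.2 points) the exact permutation test within replicate blocks gave p = 0.0556, the smallest it can give. Of 914 values of the 8 members over 7 contrasts and the alternatives, 35 changed sign, and 0 of these had passed in either fit. Egfr in PKD_FP vs WT_FP was −0.023 after median-of-ratios scaling and −0.0051 with quantile normalization. Without a library, values that changed sign ranged over −0.17 to 0.30 for Egfr in that contrast, −0.068 to 0.48 for Hbegf and −0.21 to 0.095 for Erbb2 in PKD_FP vs PKD_DMSO, −0.45 to 0.13 for Egf in WT_FP vs WT_DMSO, and −0.073 to 0.36 for Nrg4 in PKD_DMSO vs WT_DMSO. Of the members that did not pass in PKD_DMSO vs WT_DMSO, Btc ranged over 0.15 to 0.31 and Erbb2 over 0.13 to 0.44 without a library. The causes were not tested. Over all genes 3212 were called between PKD_DMSO and WT_DMSO, and 489 to 5079 over the alternatives. Of these 66.3% were higher, against 53.8% with median-of-ratios scaling and 52.8% with quantile normalization, which moved the median of all genes to −0.01, against 0.12. Calls in PKD_FP vs PKD_DMSO numbered 2, and 0 to 29 over the alternatives. With 2 libraries per group and read numbers only estimated, no absence of change is shown for Tgfa, Btc, Erbb2 or Erbb4.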
